A study of Homo sapiens with 32 samples.

Results

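GAS5, SNHG1, SNHG5, SNHG6, SNHG7, SNHG8, SNHG12 and SNHG15 are spliced long noncoding RNAs whose introns encode small nucleolar RNAs (snoRNAs). They were taken by name as a set of 8 snoRNA host and growth-sensitive transcripts, out of 22610 entries in the expression table. The set was chosen with earlier results of these data known, so its counts of calls describe these genes only. All 8 had a mean of at least 1 FPKM (fragments per kilobase of transcript, scaled to the library's mapped reads) over all samples and were among the 12621 genes that entered the statistical model. SK-N-BE(2) cells, an established human neuroblastoma line, were exposed to 20 µM cannabidiol (CBD) dissolved in ethanol or to the ethanol vehicle alone for 3, 6, 12 or 24 h. Polyadenylated RNA was sequenced from 4 samples per treatment and time, 32 samples in 8 groups. All samples came from this 1 line and 1 dose, and the study's methods state that treatments were set up in 4 replicates. Neither they nor the labels say whether these came from separate cultures or from wells of 1 culture, so p-values measure only the spread between these samples.

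A snoRNA host gene is transcribed by RNA polymerase II, and its snoRNAs are trimmed out of the excised introns. Box C/D snoRNAs guide methylation and H/ACA snoRNAs guide pseudouridylation of ribosomal RNA and spliceosomal RNA. Many hosts begin with a tract of C and T bases, the 5′ terminal oligopyrimidine tract of ribosomal protein genes, which ties their translation to growth signals. The spliced noncoding remainder is exported, meets ribosomes at short reading frames and is degraded by nonsense-mediated decay (NMD). Its level in the cell therefore depends on transcription and on decay, and FPKM values do not separate these. GAS5, growth arrest specific 5, was isolated as a transcript that accumulates when cells stop dividing.

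The DNA around the commonest annotated transcript start is shown for 7 of the 8 hosts, since both the start tract and the promoter are features that the choice of genes did not use. Each line runs from 40 bases before the start to 40 bases from the start onward, on the gene's strand, read from the human genome build GRCh37 (the hg19 sequence to which the reads were aligned) with GENCODE release 44 transcript models. Capitals mark the longest run of C and T from 10 bases before to 15 bases after the start, if of at least 5 bases. They also mark the letters TATA where they occurred between 40 and 21 bases before the start. A run was cut at the edge of its search window, and the SNHG7 run goes on upstream in lower case. The windows were GAS5 chr1:173837088-173837167 (minus strand), SNHG1 chr11:62623318-62623397 (minus strand), SNHG5 chr6:86388427-86388506 (minus strand), SNHG7 chr9:139622597-139622676 (minus strand), SNHG8 chr4:119199873-119199952 (plus strand), SNHG12 chr1:28908346-28908425 (minus strand) and SNHG15 chr7:45026228-45026307 (minus strand).
GAS5: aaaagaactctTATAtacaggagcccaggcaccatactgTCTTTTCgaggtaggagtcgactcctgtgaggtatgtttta
SNHG1: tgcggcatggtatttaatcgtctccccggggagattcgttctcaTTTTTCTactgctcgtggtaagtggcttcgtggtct
SNHG5: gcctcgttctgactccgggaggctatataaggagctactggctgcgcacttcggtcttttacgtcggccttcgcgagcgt
SNHG7: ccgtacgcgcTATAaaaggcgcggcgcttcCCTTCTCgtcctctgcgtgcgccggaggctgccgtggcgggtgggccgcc
SNHG8: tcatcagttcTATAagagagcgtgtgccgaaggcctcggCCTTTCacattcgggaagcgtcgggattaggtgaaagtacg
SNHG12: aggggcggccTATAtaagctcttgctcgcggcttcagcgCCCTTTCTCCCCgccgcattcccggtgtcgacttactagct
SNHG15: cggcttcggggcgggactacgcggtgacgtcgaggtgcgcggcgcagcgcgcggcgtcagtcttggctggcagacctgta

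An annotated start that was itself a C with at least 4 more C or T bases behind it was found for 4 of the 8 hosts (GAS5, SNHG6, SNHG8 and SNHG12) and for 3.93% of the 11413 tested genes with a start in the annotation. The longest such tract began at the start of SNHG12, with 11 bases, against 7 in SNHG6, 6 in GAS5 and 5 in SNHG8. The start used was that of 50 of the 91 annotated GAS5 transcripts. For other hosts it had fewer, with 5 of 15 for SNHG8, 3 of 8 for SNHG6, 4 of 19 for SNHG12 and 2 of 14 for SNHG15. The longest C/T run around a start, which need not begin at it and was counted only inside the window, had 13 bases in SNHG6 and 12 in SNHG12. A C/T run of at least 5 bases anywhere in the 25 bases around the start was present in 6 hosts and in 39.5% of the tested genes. SNHG5 and SNHG15 had no run of that length there. The C/T runs and the letters TATA were searched on the gene's strand only, in windows chosen after the data had been seen. The letters TATA were present in 4 hosts (GAS5, SNHG7, SNHG8 and SNHG12) and in 3.48% of tested genes. The printed SNHG5 line holds TATA closer to the start than the window searched for it. It also holds a C/T run of at least 5 bases that extends past the end of the run window. These matches describe letters in a window set by annotated starts, not sites in use in these cells.

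Genes of the neuroblastoma line itself were present throughout. All 10 neuroblastoma markers examined, among them MYCN, HAND2 and GATA3, had a mean of at least 1 FPKM in every group, and their summed level was 3270 to 4090 FPKM per sample. At 24 h, 5 of these 10 were called lower and 1 higher with CBD. Of all tested genes, 21.3% were called lower and 20.8% higher in that comparison. The 5 leukocyte markers summed to less than 1 FPKM in every sample, with a highest sum of 0.868. The 5 fibroblast markers summed to 54.0 to 77.4 FPKM, mostly from LUM, with COL1A2 near 0, and the 4 epithelial markers to 1.68 to 4.64 FPKM, with KRT5 near 0. Relative sequencing depth, read from the smallest FPKM steps of 1414 rarely read genes, ranged from 0.794 to 1.20 of the median sample, and absolute depth is unknown. The epithelial sum was 3.11 to 3.51 FPKM in vehicle and 3.97 to 4.64 FPKM in CBD at 24 h, and its part in the host results was not tested.

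At 3 h the CBD and vehicle samples of every host overlapped, and at 24 h all 8 hosts were higher with CBD. The number called higher, at an adjusted p under 0.01 in limma, was 0 of 8 at 3 h, 1 at 6 h (SNHG15), 4 at 12 h (GAS5, SNHG7, SNHG12 and SNHG15) and 8 at 24 h, and no host was called lower at any time. At an unadjusted p under 0.05 in limma, 3 hosts were higher at 3 h (SNHG5, SNHG8 and SNHG15) and none was lower, beside 12.9% of all tested genes higher and 10.3% lower at that threshold. Among all tested genes, 1.18% were called higher and 1.28% lower at 3 h, 4.07% higher and 6.13% lower at 6 h, 8.85% higher and 11.2% lower at 12 h, and 20.8% higher and 21.3% lower at 24 h. The median log2 fold change of the hosts went from 0.06 at 3 h and 0.04 at 6 h to 0.18 at 12 h and 0.47 at 24 h, while the median of all tested genes stayed between -0.0048 and 0.0066. At 24 h every CBD sample of all 8 hosts lay above every vehicle sample of the same host, an order that 25.1% of tested genes showed. The same share at 3, 6 and 12 h is not given here. Overlap or separation of the groups at those times therefore describes single hosts only. In RNA from a whole population of cells, a change in RNA per cell and a change in the mix of cells cannot be told apart.

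**Figure D1:**
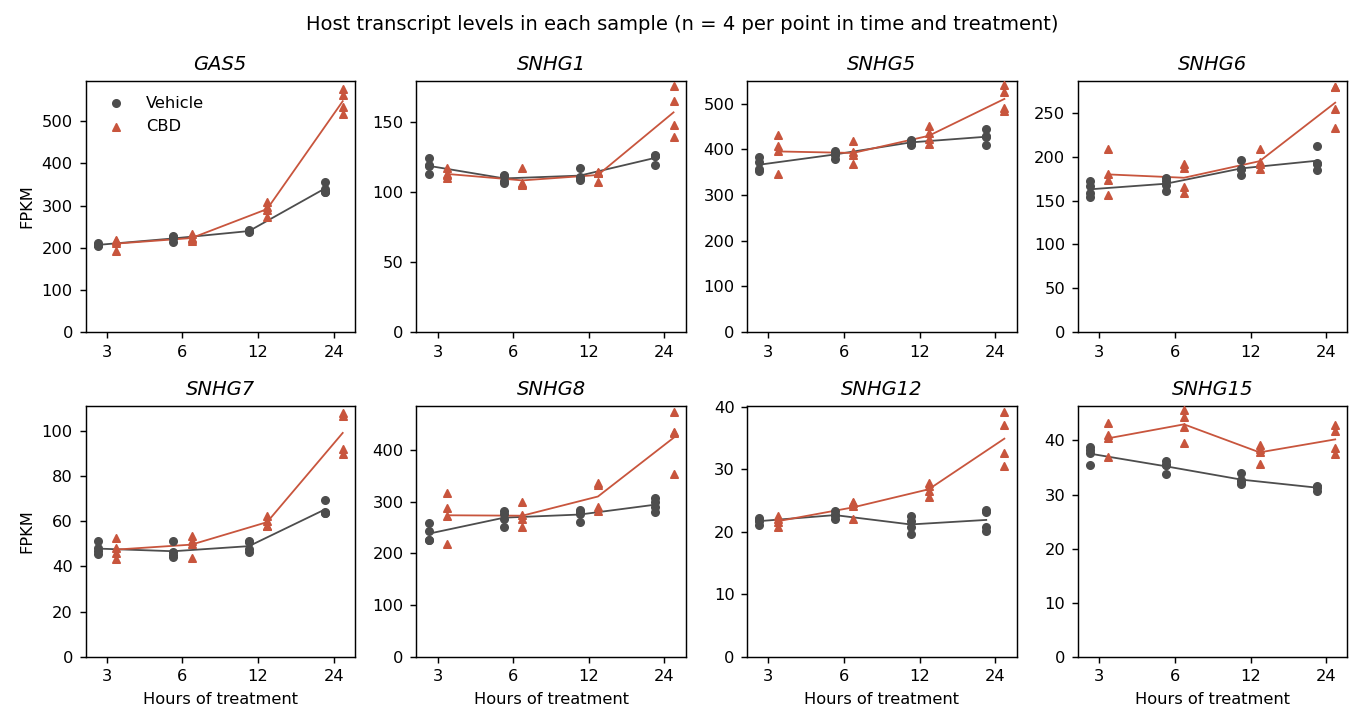
FPKM (vertical axis, from 0) of each host in every sample against hours of treatment, with 4 vehicle samples (grey circles) and 4 CBD samples (red triangles) per time and lines through the group means. The treatments overlap at 3 h in every panel and separate in every panel at 24 h, where GAS5 has 517 to 576 FPKM with CBD and 332 to 356 with vehicle.

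GAS5 had the highest estimate of the CBD effect at 24 h, with a 95% interval of 0.60 to 0.76 that overlapped that of SNHG12, 0.53 to 0.76. The gene holds 11 annotated snoRNA genes, 10 of the box C/D class, and its canonical transcript model has 12 exons and 768 bases. At 3 h the vehicle samples had 211, 204, 206 and 205 FPKM and the CBD samples 192, 212, 217 and 218 FPKM. The ranges overlapped, and the difference was 0.02 on the log2 scale (95% interval -0.06 to 0.10). At 6 h the vehicle mean was 222 ± 6.71 FPKM and the CBD mean 223 ± 7.46 (SD, n = 4), again overlapping. At 12 h the vehicle samples had 238, 242, 239 and 239.6 FPKM and the CBD samples 296, 290.2, 308 and 272 FPKM. The groups no longer overlapped, and the log2 fold change was 0.28 ± 0.04 (SE, limma adjusted p = 3.08e-06). At 24 h the vehicle samples had 356, 332, 340.2 and 332 FPKM and the CBD samples 562, 534, 576 and 517 FPKM. The lowest CBD sample stood well above the highest vehicle sample, the means differed 1.61-fold, and the log2 fold change was 0.68 ± 0.04 (SE, limma adjusted p = 7.07e-14).

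GAS5 also rose with time in vehicle alone, from 207 ± 2.80 FPKM at 3 h to 340.0 ± 11.7 at 24 h (SD, n = 4). That change was 0.71 ± 0.04 on the log2 scale (SE, limma adjusted p = 1.93e-14), close in size to the CBD effect at 24 h. With CBD the change over the same hours was 1.38 ± 0.04 (SE, limma adjusted p = 7.61e-21). In order of level, the CBD group at 12 h fell between the vehicle groups at 12 h and 24 h, and none of the 4 highest groups overlapped its lower neighbour, whereas the 4 lowest, both treatments at 3 and 6 h, did. Among the 8 hosts GAS5 ranked 3rd by FPKM in vehicle at 3 h, 2nd in vehicle at 24 h and 1st with CBD at 24 h. The ratio of GAS5 to SNHG5, the highest host in the other groups, was 0.565 ± 0.0154 in vehicle at 3 h, 0.796 ± 0.0143 in vehicle at 24 h and 1.07 ± 0.0692 with CBD at 24 h (SD, n = 4).

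SNHG1, SNHG5 and SNHG6, which hold box C/D snoRNAs and none of the H/ACA class, were called higher with CBD at 24 h and not at the earlier times. SNHG1 holds 8 box C/D snoRNA genes, SNHG5 holds 2 and SNHG6 holds 1. SNHG1 had 119, 124, 119.8 and 113 FPKM in vehicle at 3 h and 117, 112, 110.4 and 113 FPKM with CBD. On the log2 scale CBD differed from vehicle by -0.07 at 3 h, -0.02 at 6 h and 0.01 at 12 h, with overlapping groups each time. At 24 h SNHG1 had 126, 126, 127 and 119.9 FPKM in vehicle and 176, 148, 165 and 139.6 FPKM with CBD. The CBD samples were all higher and far more spread, with an SD of 16.5 against 3.24 FPKM, and the log2 fold change was 0.33 ± 0.05 (SE, limma adjusted p = 3.03e-06). This SE comes from a spread shared by all groups and does not reflect the wider CBD group. The highest limma adjusted p for it under the alternatives run was 0.0062.

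SNHG5, the most abundant host in 7 of the 8 groups, had 445, 409, 428 and 427 FPKM in vehicle at 24 h and 491, 484, 539 and 526 FPKM with CBD. This was the lowest estimate of the 8 at 24 h, with means 1.19-fold apart and a log2 fold change of 0.25 ± 0.05 (SE, limma adjusted p = 8.01e-05). At 3 h its CBD samples were 346, 397, 406 and 431 FPKM against 383, 353, 357 and 371 in vehicle. One CBD sample lay below and the others above all vehicle samples, and the difference of 0.11 was not called (limma adjusted p = 0.185). SNHG6 had 212, 185, 193 and 192 FPKM in vehicle at 24 h and 255, 233, 280.0 and 279 FPKM with CBD. The log2 fold change was 0.42 ± 0.07 (SE, limma adjusted p = 2.24e-05), and at 3, 6 and 12 h it was 0.14, 0.05 and 0.06, none called.

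The hosts of H/ACA snoRNAs beside GAS5, which has 1, were SNHG7 with 2, SNHG8 with 1, SNHG12 with 3 beside 1 box C/D snoRNA, and SNHG15 with 1. The CBD effects on SNHG7 and SNHG12 followed the course of that on GAS5, with a call at 12 h and a larger effect at 24 h. SNHG7 had 51.2, 47.6, 50.6 and 46.3 FPKM in vehicle at 12 h and 57.9, 60.2, 62.1 and 58.0 FPKM with CBD. The groups were separate, with a log2 fold change of 0.28 ± 0.06 (SE, limma adjusted p = 0.00164). At 24 h it had 69.2, 63.4, 63.6 and 64.0 FPKM in vehicle and 106, 89.8, 108 and 92.1 FPKM with CBD, a 1.52-fold difference of means and a log2 fold change of 0.59 ± 0.06 (SE, limma adjusted p = 2.08e-08). SNHG12, the least abundant of the 8, had 22.5, 21.7, 20.9 and 19.7 FPKM in vehicle at 12 h and 27.8, 27.3, 26.6 and 25.6 FPKM with CBD. Again no sample of one treatment reached the other, and the log2 fold change was 0.33 ± 0.06 (SE, limma adjusted p = 8.08e-05). At 24 h the vehicle samples of SNHG12 had 23.1, 23.5, 20.1 and 20.8 FPKM and the CBD samples 37.2, 32.7, 39.2 and 30.6 FPKM. The means differed 1.59-fold, with a log2 fold change of 0.65 ± 0.06 (SE, limma adjusted p = 5.33e-10).

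SNHG8 had the widest spread of the hosts. Its CBD samples at 3 h ran from 217 to 317 FPKM around vehicle samples of 226 to 258 FPKM, and the difference of 0.19 was not called (limma adjusted p = 0.195). At 12 h the CBD samples had 337, 282, 332 and 289 FPKM against 261, 280.4, 283 and 276 in vehicle, with an overlap of 1 CBD sample and a log2 fold change of 0.17 that was not called (limma adjusted p = 0.161). At 24 h SNHG8 had 308, 289, 281 and 299 FPKM in vehicle and 433, 354, 473 and 434 FPKM with CBD. The groups were separate there, with a log2 fold change of 0.52 ± 0.09 (SE, limma adjusted p = 2.05e-05).

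SNHG15, a transcript known for rapid turnover, took a different course from the other 7. It was the only host called at 6 h, where it had 35.5, 36.2, 33.9 and 35.4 FPKM in vehicle and 42.5, 45.7, 44.3 and 39.5 FPKM with CBD. All CBD samples were higher, with a log2 fold change of 0.28 ± 0.04 (SE, limma adjusted p = 6.45e-05), and it was not called when the 6 h samples were fitted alone (limma adjusted p = 0.0107). The effect was 0.20 ± 0.04 at 12 h (SE, limma adjusted p = 0.00118) and 0.35 ± 0.04 at 24 h (SE, limma adjusted p = 3.01e-07). At 24 h the samples had 31.4, 31.6, 30.6 and 31.5 FPKM in vehicle and 42.9, 38.6, 41.7 and 37.6 FPKM with CBD. The vehicle level had fallen by 0.26 on the log2 scale between 3 and 24 h (limma adjusted p = 1.72e-05), while the CBD level went from 40.4 ± 2.60 to 40.2 ± 2.53 FPKM (SD, n = 4), a difference of -0.01 (95% interval -0.10 to 0.09). The separation at 24 h thus lay between a lower vehicle level and a CBD level close to its start.

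**Figure D2:**
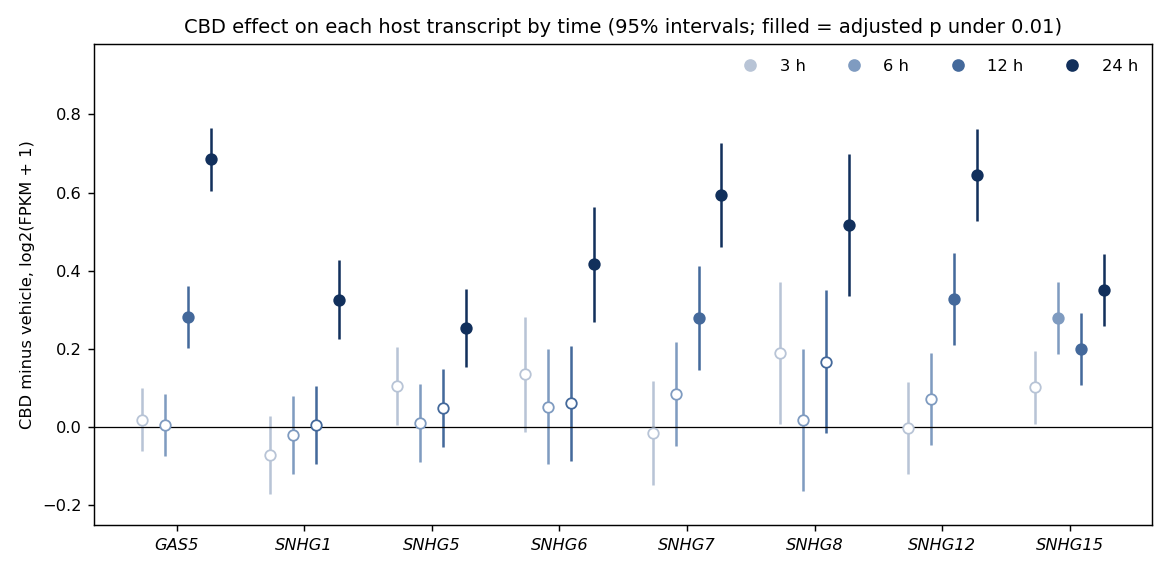
CBD minus vehicle on the log2(FPKM + 1) scale (vertical axis) for each host at 3, 6, 12 and 24 h, from light to dark, with 95% intervals from limma. Filled points passed an adjusted p of 0.01: none at 3 h, SNHG15 at 6 h, 4 hosts at 12 h and all 8 at 24 h, from 0.25 for SNHG5 to 0.68 for GAS5.

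Whether the CBD effect itself grew was tested as the difference between the effects at 24 h and at 3 h. It was larger at 24 h for 5 hosts, by 0.67 for GAS5, 0.65 for SNHG12, 0.61 for SNHG7, 0.40 for SNHG1 and 0.25 for SNHG15, and no host was called smaller. Of all tested genes, 12.9% were called with a larger and 14.3% with a smaller value at 24 h. SNHG8 had a difference of 0.33 (95% interval 0.07 to 0.58, limma adjusted p = 0.0395), SNHG6 0.28 (0.07 to 0.49, limma adjusted p = 0.0295) and SNHG5 0.15 (0.01 to 0.29, limma adjusted p = 0.0891), which did not pass. SNHG6 passed without CBD 3 h replicate 4 (0.36, limma adjusted p = 0.00379) and SNHG8 without CBD 24 h replicate 2 (0.41, limma adjusted p = 0.00765). Without CBD 3 h replicate 1 the difference was 0.09 for SNHG5, with no call, and 0.22 for both SNHG6 and SNHG8, also with no call. Under quantile normalization SNHG5 (0.22, limma adjusted p = 0.00857) and SNHG6 (0.36, limma adjusted p = 0.0036) passed. These 3 were the hosts with the widest CBD groups at 3 h. In that group the sample with the lowest GAS5, SNHG5, SNHG6 and SNHG8, replicate 1, had the highest SNHG1, SNHG7 and SNHG15.

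The hosts also differed in what 21 more hours did without drug. Between 3 and 24 h in vehicle, 5 rose (GAS5 by 0.71, SNHG7 0.44, SNHG8 0.31, SNHG6 0.26 and SNHG5 0.22 on the log2 scale), SNHG15 fell, and SNHG1 and SNHG12 were not called, with differences of 0.07 (95% interval -0.03 to 0.17) and 0.01 (-0.11 to 0.13). The calls of SNHG6 and SNHG8 were lost without vehicle 3 h replicate 2 or vehicle 24 h replicate 1 (limma adjusted p from 0.0106 to 0.0140), and that of SNHG8 also without vehicle 3 h replicate 3 (0.0134). Over all tested genes 26.6% were called higher and 31.1% lower in that comparison. With CBD, 7 hosts were called higher at 24 h than at 3 h and none lower, against 32.1% higher and 35.7% lower of all tested genes. SNHG12 was thus level in vehicle, at 21.7 ± 0.497 FPKM at 3 h and 21.9 ± 1.69 at 24 h, and higher with CBD, at 34.9 ± 3.96 at 24 h (SD, n = 4). The 24 h samples enter both this comparison and the CBD effect at 24 h, so these values are given side by side only.

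**Figure D3:**
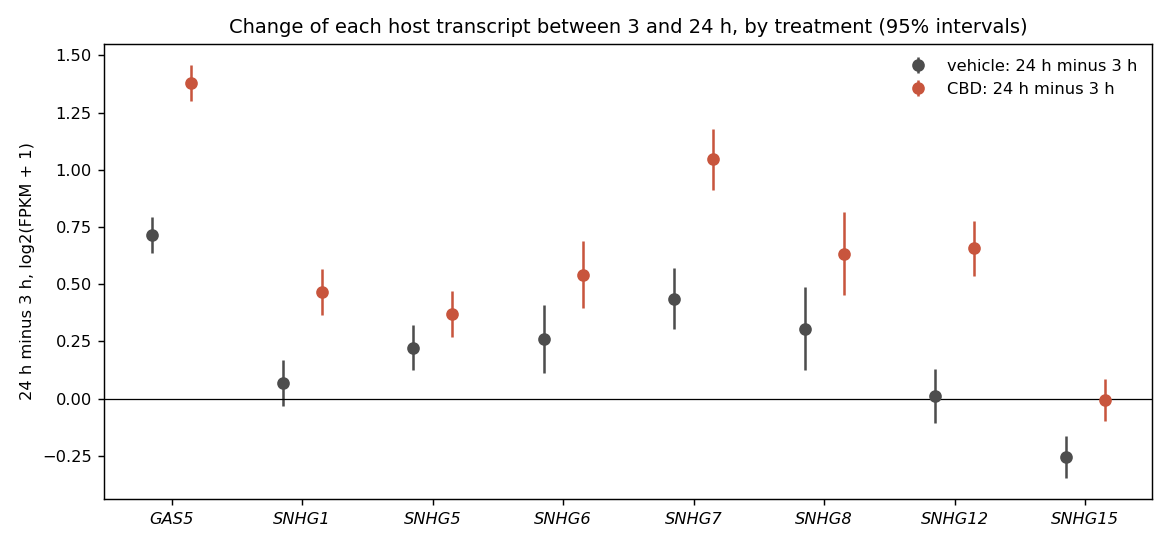
Difference between 24 h and 3 h on the log2(FPKM + 1) scale (vertical axis) for each host in vehicle (grey) and with CBD (red), with 95% intervals. GAS5 has 0.71 in vehicle and 1.38 with CBD, SNHG12 has 0.01 and 0.66, and SNHG15 has -0.26 and -0.01.

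Added together, the 8 hosts had 1200 ± 38.4 FPKM in vehicle and 1281 ± 102 with CBD at 3 h, and 1500 ± 49.2 in vehicle and 2074 ± 128 with CBD at 24 h (SD, n = 4). Their share of all FPKM was 0.149% ± 0.00651 in vehicle and 0.203% ± 0.0129 with CBD at 24 h. At that time the summed CBD samples ran from 1914 to 2222 FPKM and the vehicle samples from 1459 to 1572, with no overlap. At 3 h the CBD samples, 1147 to 1395 FPKM, spanned the vehicle range of 1170 to 1254.

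Across the 8 group means, 7 hosts had similar profiles and SNHG15 stood apart. Pearson's r between pairs of the 7 ran from 0.768 (SNHG1 with SNHG12) to 0.992 (GAS5 with SNHG7), and between SNHG15 and the others from -0.037 to 0.434. The 8 points share samples and the general drift with time, and r is given as a description. The genes most like the mean host profile were ACYP1 (r = 0.995), HACD1 (0.995), FAM222A-AS1 (0.992), RELL2 (0.991) and CYTL1 (0.991). For single hosts, the nearest were ZP3 and SERINC2 to GAS5 (both 0.998), CREBRF and FKBP11 to SNHG7 (0.997 and 0.996), PTPDC1 and CLDN11 to SNHG12 (0.990 and 0.985), and CHFR and UHRF1BP1 to SNHG15 (0.983 and 0.971). For the rest they were TBL1XR1 and LSM11 to SNHG1 (0.982 and 0.980), KDM1B and CLYBL to SNHG5 (0.993 and 0.990), CYTL1 and DDX59 to SNHG6 (0.993 each), and IRF2BPL and ARFGAP3 to SNHG8 (0.995 and 0.990).

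The snoRNAs carried in the introns were largely too variable to follow. RefSeq places 30 snoRNA genes inside the 8 hosts, 22 box C/D and 8 H/ACA, of which 28 had an entry in the table, matched by symbol or synonym, and all 28 passed the FPKM filter. Such entries are 60 to 134 bases long and are read here from a library of polyadenylated RNA. Whether their reads came from trimmed snoRNAs or from host RNA that still held the intron was not tested. Of the 28, 6 were listed at exactly 0 in at least 1 sample (SNORD78, for example, from 0 to 4307 FPKM), and both snoRNAs of SNHG7 had lowest values that round to 0. SNORD76, in GAS5, was called higher at 12 and 24 h, and no other entry was called in either direction at any time. At 24 h SNORD76 ran from 1849 to 2020 FPKM in vehicle and from 2342 to 3201 FPKM with CBD, without overlap, with a log2 fold change of 0.59 ± 0.11 (SE, limma adjusted p = 7.72e-05), beside 0.68 for GAS5 itself. SNORD47, in the same gene and the most abundant of the entries, had 4605 to 5825 FPKM in vehicle and 5382 to 6167 with CBD, and a log2 fold change of 0.12 ± 0.09 (SE, limma adjusted p = 0.255). The median log2 fold change of the 28 entries at 24 h was 0.27, with 21 of them above 0, beside 6127 of the 12621 tested genes. Their median SE was 0.37, so a change of the size seen in the hosts was not detectable for most of them.

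**Figure D4:**
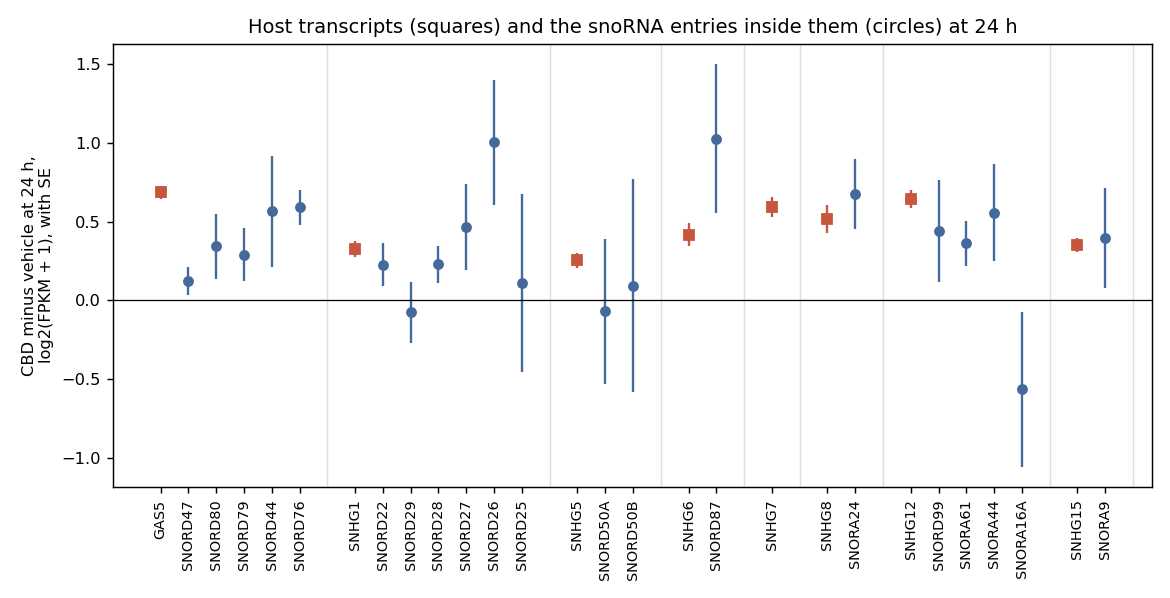
CBD minus vehicle at 24 h on the log2(FPKM + 1) scale (vertical axis, bars are SE) for the 8 hosts (red squares) and, to the right of each, the snoRNA entries inside it that stayed above 1 FPKM in every sample (blue circles). The hosts lie between 0.25 and 0.68 with short bars, and most snoRNA bars are longer, with SNORD76 at 0.59 the only one called.

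Other snoRNA hosts, noncoding and coding, had lower median effects, though single genes lay within the range of the 8 hosts, 0.25 to 0.68. The 8 hosts and these lists were chosen with earlier results of these data known, so nothing is drawn from the order of the medians. Of 12 tested further noncoding hosts, 8 were called higher and 1 lower at 24 h, with a median log2 fold change of 0.24. The shares of all tested genes were 20.8% higher and 21.3% lower. They included ZFAS1 (0.53), SNHG19 (0.52), EPB41L4A-AS1 (0.44) and SNHG3 (0.30) among the higher, and DANCR (-0.15) was the lower one. DANCR was also called lower at 12 h (-0.22), where SNHG4 (0.25) was called higher, and SNHG3 was called lower at 3 h (-0.13). Of 34 protein-coding snoRNA hosts, mostly ribosomal protein genes, 16 were called higher and 0 lower at 24 h, with a median of 0.11, whereas under quantile normalization 8 were called higher and 3 lower. The largest were TAF1D (0.58), a subunit of the RNA polymerase I selectivity factor, the helicase gene EIF4A2 (0.36), RPL12 (0.26) and RPL3 (0.20). A C/T tract from the start, as defined above, was present in 20 of the 33 coding hosts and 2 of the 12 noncoding hosts that had an annotated start. The 8 proteins that assemble snoRNAs into particles, among them fibrillarin (FBL) and dyskerin (DKC1), had a median of -0.04 at 24 h, and none was called in either direction by limma, with 1 higher and 1 lower at an unadjusted p under 0.05. NOP56 is on both this list and that of coding hosts.

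Factors of NMD, the decay pathway described above, and coding genes known as its targets were taken from further lists. Decay was not measured, and its part in the host levels was not tested. Of 15 NMD factors, 9 were called lower and 0 higher at 24 h, with a median of -0.16, led by the exon junction proteins RBM8A (-0.43), MAGOHB (-0.29) and EIF4A3 (-0.21) and the helicase UPF1 (-0.19). Of 10 tested coding NMD targets, 7 were called higher and 0 lower, with a median of 0.24. The largest were DDIT3 (1.29), ATF3 (0.52), GABARAPL1 (0.51) and ATF4 (0.41). Of all tested genes, 20.8% were called higher and 21.3% lower with CBD at 24 h. In vehicle alone between 3 and 24 h, 9 of the 15 NMD factors were called lower and 1 higher, with a median of -0.22. Over those hours 5 of the 10 coding NMD targets were higher and 1 lower in vehicle, with a median of 0.11. The shares of all tested genes were then 26.6% higher and 31.1% lower. ATF3, DDIT3 and ATF4 are also transcription factors of the stress response, and SMG5 is on both lists. In the other lists at 24 h, 3 of 8 decapping and 5′ decay genes were lower (EDC4 -0.30, LSM1 -0.21, EDC3 -0.19) and PATL1 (0.13) was higher, with a list median of -0.01. The eIF2 phosphorylation list of 7 had 2 higher, the phosphatase subunits PPP1R15A (0.32) and PPP1R15B (0.22), and 0 lower, with a median of 0.08. Among 5 tested long noncoding RNAs that are not snoRNA hosts, NEAT1 (0.46) and MALAT1 (0.43) were higher and MEG3 (-0.60) and TUG1 (-0.14) lower, with a median of -0.01. The lists describe their own members and were compared with the hosts by counts and medians only.

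**Figure D5:**
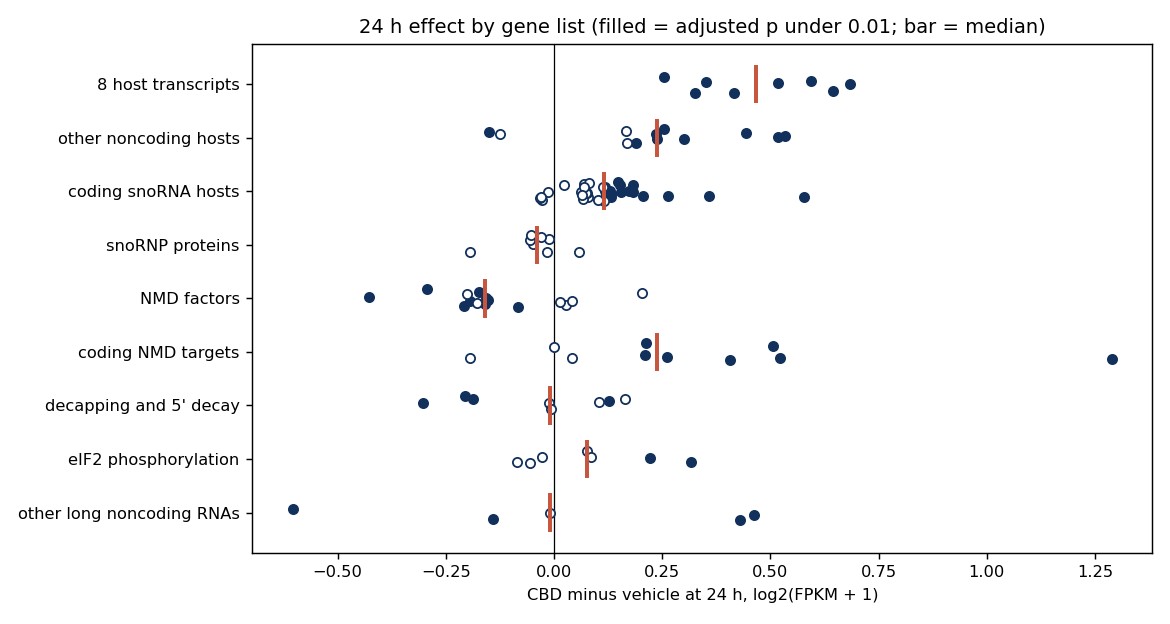
CBD minus vehicle at 24 h on the log2(FPKM + 1) scale (horizontal axis) for each tested gene of the 8 hosts and of 8 further lists, with filled points at an adjusted p under 0.01 and red bars at the list medians. The hosts are all filled, from 0.25 to 0.68, and the medians are 0.47 for the hosts, 0.24 for other noncoding hosts, 0.11 for coding hosts and -0.16 for NMD factors.

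The genes described here that overlap a host or lie within 5 kb of it did not move as 1 block with it. SLC3A2, the heavy chain of amino acid transporters, starts 51 bp from SNHG1 on the opposite strand. It was called higher at all 4 times, by 0.28, 0.77, 0.63 and 0.79 on the log2 scale from the first time to the last, while SNHG1 was at -0.07, -0.02, 0.01 and 0.33. PRSS12, which overlaps SNHG8 on the opposite strand, was called lower at 12 h (-0.10) and 24 h (-0.24), where SNHG8 had 0.17 and 0.52. At 24 h, TRNAU1AP (-0.25), which overlaps SNHG12 on the other strand, was lower, whereas ZBTB37 (0.26), which overlaps the annotated GAS5 locus on the opposite strand, and TAF12 (0.14), on the same strand as SNHG12, were higher. GAS5-AS1, antisense within GAS5, had 1.82 FPKM on average and was not called at any time (-0.08 at 24 h). MCMDC2 and MYO1G, near SNHG6 and SNHG15, were below the FPKM filter. The study's methods describe the sequencing as first stranded, but the strand setting used for counting is not given in the sources used here, so reads from overlapping genes on opposite strands may be shared between their values.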

How the data were processed

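RNA from SK-N-BE(2) cells in 8 groups of 4 samples was sequenced by the submitters, who deposited 1 table of FPKM values. Per the labels and the study's methods, the authors used single reads of polyadenylated RNA (the methods name a TruSEQ preparation, the labels a Nugen one), Trimmomatic 0.36, TopHat2 on hg19 and Cufflinks (the submitters' processing notes give version 2.2.1 for TopHat2, the methods give it for Cufflinks and Cuffdiff and another for TopHat), whose FPKM values were deposited. FPKM scales each gene by its length and by mapped reads, so read counts and absolute depth are not known and low values carry more counting error. A deposited second table with the authors' own log2 fold changes and q-values from Cuffdiff was not used. Every per-sample column was used (0 left out).

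Groups came from the sample labels. FPKM values were analysed as log2(FPKM + 1) in R 4.3.3 with limma 3.58.1, over the 12621 genes with a mean of at least 1 FPKM, with 8 group means, moderated variances with a trend, and Benjamini-Hochberg adjustment within each comparison over all these genes, at a threshold of 0.01. A fold change on this scale slightly understates the change of low genes. Samples sharing a replicate number did not deviate together (correlations of deviations from group means -0.076 to 0.094), so no pairing was used. Gene models were GENCODE release 44 on GRCh37. The snoRNAs inside each host were taken by name from RefSeq on GRCh38.p14. The 8 hosts were all described. From the other lists up to 4 called genes per list and time were named by size of the log2 fold change, with any single remaining call named as well after its value was seen. Entries within 5 kb of a host (1 is not reported here) and the genes with the highest correlation to the host profiles were named too. The hosts and the lists were chosen with earlier results of these data known. Alternatives changed the added value, filter, scaling, variance model, samples, pairing, depth and threshold.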

Additional observations from a re-analysis of the deposited data

Results flagged for a closer look

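In 5 hosts the CBD effect at 24 h differed from that at 3 h by a test of the difference itself in limma, by 0.67 for GAS5, 0.65 for SNHG12, 0.61 for SNHG7, 0.40 for SNHG1 and 0.25 for SNHG15 on the log2 scale, all larger at 24 h.

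In 4 of the 64 host and group combinations, 1 of the 4 samples lay far from the other 3 by Dixon's criterion, about the 1 in 20 that chance gives. The SNHG1 value of CBD replicate 2 at 6 h was 117 FPKM, against 105 to 106 in the others. The SNHG1 value of CBD replicate 1 at 12 h was 108 FPKM, against 114 to 115. Vehicle replicate 4 at 24 h had 120 FPKM of SNHG1, against 126 to 127 in the others, and vehicle replicate 1 at 24 h had 69.2 FPKM of SNHG7, against 63.4 to 64.0.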

How the results depend on the processing

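Of 1216 values of single hosts recomputed under an alternative, 1204 kept their direction or call, 6 lost and 6 gained a call, and no called value changed sign, while 31 uncalled values did. The count of hosts called higher at 6 h was 0 instead of 1 when each time was fitted alone, since SNHG15 then had an adjusted p of 0.0107 at the same log2 fold change of 0.28, with fewer samples to estimate the spread. The CBD effects of all 8 hosts at 24 h and of the 4 called at 12 h passed under every alternative run. The 5 other losses were of the vehicle time change, for SNHG6 without vehicle 3 h replicate 2 or vehicle 24 h replicate 1 (adjusted p of 0.0106 and 0.0140) and for SNHG8 without vehicle 3 h replicate 2, vehicle 3 h replicate 3 or vehicle 24 h replicate 1 (0.0134, 0.0134 and 0.0129). The difference of the CBD effect between 24 h and 3 h gained a call for SNHG5 and SNHG6 under quantile normalization, for SNHG6 without CBD 3 h replicate 4, for SNHG8 without CBD 24 h replicate 2, and for SNHG6 and SNHG8 at a threshold of 0.05. With the replicate number as a replicate block, 0, 1, 4 and 8 hosts were called higher at 3, 6, 12 and 24 h, 5 differed between 24 h and 3 h and 6 changed in vehicle, as without it, and the samples share only a number. The alternatives for the other lists and for the time changes of single hosts were added after the data had been seen. In the other lists at 24 h, quantile normalization moved the coding snoRNA hosts from 16 higher and 0 lower to 8 higher and 3 lower. With no read counts, counting error could not be separated from the spread between samples, which limits the snoRNA entries most.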
